A study of Rattus norvegicus with 11 samples.

Results

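The region described here is the start of rat chromosome 16, which carries Ercc6, the gene of the DNA repair and transcription factor CSB. Its members are all features on chromosome 16 of the rat build rn6 that start below position 25000000 and are listed in all 11 deposited libraries, with Ercc6 itself left out. They number 303 of the 23093 features that the libraries share. Of these, 158 have a gene name and 145 are assembled features without one. The named members hold 135 protein-coding genes, 11 lincRNAs, 6 snoRNAs, 4 processed pseudogenes, 1 snRNA and 1 ribozyme. The remainder of chromosome 16 holds 364 further features.

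RNA of 11 libraries labelled as cerebellar cortex was sequenced from 10-week-old Sprague-Dawley rats. The study's model is a rat with a stop mutation of CSB named R571X, made to resemble Cockayne syndrome, a human disorder of growth, nervous system and ageing. The labels give 6 libraries from homozygous R571X/R571X rats, 2 from rats whose titles name a heterozygous genotype (the genotype label writes their second allele only as a minus sign), and 3 from wild-type rats. The labels name no other allele or agent and do not say that each library is 1 animal, so the p-values describe how far these samples vary, part of which may be technical. The sources used here do not say whether the groups were littermates.

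CSB binds RNA polymerase II that has stalled at DNA damage and calls in the repair machinery, a process known as transcription-coupled repair. Genes close together on a chromosome are inherited together, and genes that flank an engineered allele are commonly examined beside it. Next to Ercc6 lies the cholinergic locus, in which Slc18a3, the vesicular acetylcholine transporter, sits inside the first intron of Chat, the enzyme that makes acetylcholine. Both proteins are hallmarks of cholinergic neurons, which are common in the basal forebrain, striatum and brainstem motor nuclei and sparse in cerebellum.

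Promoter windows of the 3 genes nearest to Ercc6 on either side, Chat, Slc18a3 and Drgx, are shown because their high values lay in few libraries, given below. Drgx encodes a homeobox factor of sensory neurons. Each window runs from 250 bases before to 50 bases after the gene's start and was taken from RefSeq (build GRCr8, whose positions differ from those of rn6 used elsewhere). All 3 symbols matched. Capitals mark the motifs CACGTG (an E-box) and GGGCGG (a GC box), searched on both strands.
Chat: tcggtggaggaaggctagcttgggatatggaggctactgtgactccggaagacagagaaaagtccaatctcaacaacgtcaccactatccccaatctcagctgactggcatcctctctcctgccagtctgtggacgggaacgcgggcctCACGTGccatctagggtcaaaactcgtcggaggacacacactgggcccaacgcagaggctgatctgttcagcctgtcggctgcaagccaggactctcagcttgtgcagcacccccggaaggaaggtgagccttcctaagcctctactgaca
Slc18a3: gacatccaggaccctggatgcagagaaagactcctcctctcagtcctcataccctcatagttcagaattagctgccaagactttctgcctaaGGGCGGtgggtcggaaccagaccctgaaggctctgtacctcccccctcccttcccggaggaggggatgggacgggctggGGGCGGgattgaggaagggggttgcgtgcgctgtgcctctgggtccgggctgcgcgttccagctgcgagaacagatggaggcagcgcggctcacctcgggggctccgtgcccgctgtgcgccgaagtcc
Drgx: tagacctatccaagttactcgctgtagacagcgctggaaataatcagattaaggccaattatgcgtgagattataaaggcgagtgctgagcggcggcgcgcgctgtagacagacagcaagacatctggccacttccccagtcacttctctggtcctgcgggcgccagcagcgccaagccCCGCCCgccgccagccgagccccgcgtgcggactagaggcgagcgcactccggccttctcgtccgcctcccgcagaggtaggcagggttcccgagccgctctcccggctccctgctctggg
The Chat window lies at chr16:7723367-7723666 on the minus strand, that of Slc18a3 at chr16:7722765-7723064 on the minus strand, and that of Drgx at chr16:7860907-7861206 on the plus strand. The Chat and Slc18a3 windows lie 302 bases apart on the same strand. The Chat window holds 1 E-box and no GC box, and the Slc18a3 window holds 2 GC boxes and no E-box. The Drgx window holds 1 GC box. The homeodomain motif TAATTA, searched the same way, is in none of the 3 windows. Over all 33469 windows of this length, 6.42% hold CACGTG, 33.1% hold GGGCGG and 5.36% hold TAATTA. These motifs do not overlap each other in the windows shown, and a match describes letters only.

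The libraries held 5406669 to 8723823 reads on features, and members took 1.38% to 1.70% of them. The authors divided each library's reads by 1 size factor in 2 separate sets. Set 1 holds the heterozygous libraries and homozygous replicates 1 to 3, and set 2 the wild-type libraries and homozygous replicates 4 to 6. Values below are normalized reads of the library's own set, and 1 read is worth 0.721 to 1.24 of them. Levels set across both sets are CPM (recovered reads as a share of all reads on features, counted per 1000000) with all 11 libraries scaled together. Of the labelled tissue's defining markers, the 7 granule cell genes were not analysed here, and of the 6 Purkinje cell genes only Calb1 was, at 82.9 to 520 CPM. The analysed genes of the list for cerebral cortex excitatory neurons, Neurod6, Emx1 and Slc17a7, summed to 2837 to 5194 CPM over the 11 libraries. Most of this was Slc17a7, at 2721 to 4865 CPM, while Neurod6 was at 50.9 to 309 and Emx1 at 32.5 to 84.4. Whether Slc17a7 is particular to cerebral cortex was not tested, so the sum does not tell that region from the labelled tissue. Which cells these reads came from was not tested.

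Ercc6, the reference point, lay at chr16:8734035-8804610. It was at 123, 119 and 85.8 normalized reads in homozygous replicates 4 to 6 and at 295, 407 and 356 in the wild type. The groups did not overlap, and the fitted log2 difference was -1.69 ± 0.22 (SE; limma, adjusted p = 0.0171). The call was lost without homozygous replicate 4 or 6 or wild-type replicate 2 or 3 (limma, adjusted p = 0.0679, 0.0646, 0.0769 and 0.147), with differences of -1.78 to -1.53. In set 1 it was at 157, 158 and 153 in homozygous replicates 1 to 3 and at 228 and 178 in the heterozygous libraries, a log2 difference of -0.37 that did not pass (limma, adjusted p = 0.576).

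No member of the region passed the test beside it. Of 303 members, 280 had a mean of at least 1 normalized read and were tested. None reached an adjusted p under 0.05 (limma, Benjamini-Hochberg over all 20956 features) between homozygous and wild-type libraries, where 0.0382% of all features did (8 features, Ercc6 included). None did between homozygous and heterozygous or between heterozygous and wild-type libraries, where 0.0% of all features did. With edgeR's quasi-likelihood test on recovered reads the count was also 0 in each comparison. With DESeq2 it was 0, 5 and 1 of the 208, 170 and 232 members for which DESeq2 gave an adjusted p. These are 0.0%, 2.94% and 0.431%, against 0.249%, 1.65% and 0.151% of all such features. The 5 were Rab3a, Abhd8 and 3 features without a name. The 1, called in an indirect contrast across the 2 sets, was among those 3 and is described below.

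At an unadjusted p under 0.05, 13 of the 280 members were higher in homozygous than in wild-type libraries and 12 were lower, or 4.64% and 4.29%, against 3.34% and 3.01% of all features. Against heterozygous libraries, 14 members were higher in homozygous libraries and 26 lower, or 5.00% and 9.29%, against 6.16% and 5.96% of all features. Between heterozygous and wild-type libraries 14 were higher and 10 lower, against 3.90% and 4.07%. The median log2 difference over the tested members was -0.07 against wild type, where that of all features was -0.00, and -0.07 against heterozygous, where it was 0.04.

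Distance from Ercc6 split the members into 24 within 1 Mb (22 tested), 78 at 1 to 5 Mb (72 tested) and 201 further away (186 tested). The median log2 difference between homozygous and wild-type libraries was 0.35 within 1 Mb, -0.04 at 1 to 5 Mb and -0.12 beyond. The median size of the difference, sign aside, was 0.71 within 1 Mb, against 0.28 at 1 to 5 Mb, 0.35 beyond and 0.32 over all features. Mean normalized reads of tested members within 1 Mb were as low as 1.57 (Lrrc18) and 1.83 (Arhgap22), while Ncoa4 had 1425. The distance groups were not matched for level, and the part of low reads in these sizes was not tested. In the other set the medians were -0.03, 0.03 and -0.14, and the median sizes 0.47, 0.37 and 0.47, against 0.45 over all features. Members within 1 Mb that differed from wild type at an unadjusted p under 0.05 were 5 higher and 1 lower of 22. Over all features the shares were 3.34% and 3.01%. The higher ones were Chat, Slc18a3, Hacl1 and 2 features without a name, and the lower one was Arhgap22. Chat and Slc18a3 overlap on the same strand, so they are not separate evidence. In the other set, 0 were higher and 4 lower, where 6.16% and 5.96% of all features were.

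**Figure D1:**
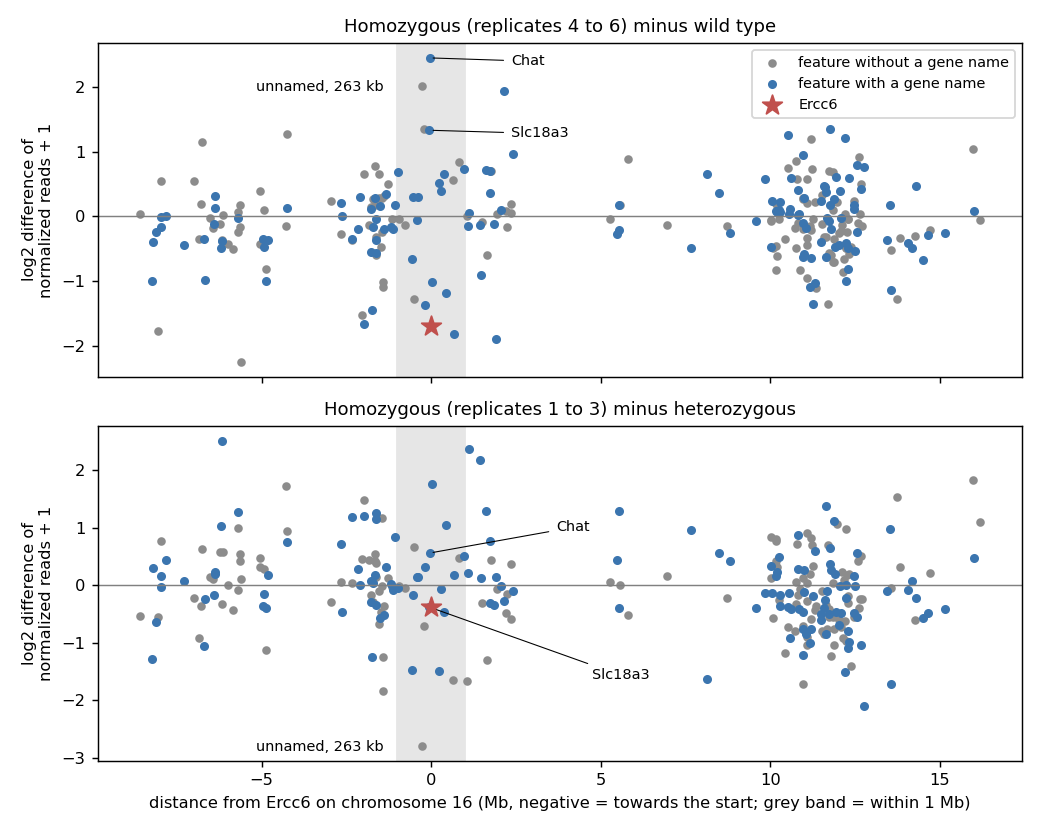
Log2 difference of each tested member (1 point each) against its distance from Ercc6 in Mb, with Ercc6 as a star and the 1 Mb to each side shaded; homozygous replicates 4 to 6 minus wild type above, homozygous replicates 1 to 3 minus heterozygous below. Chat, Slc18a3 and the unnamed feature 263 kb away stand high above, where Ercc6 is at -1.69, and the unnamed feature is the lowest member below, at -2.78.

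The feature with the smallest p of all members in all 3 comparisons has no gene name. It lies at chr16:8466951-8471344 on the plus strand, 263 kb before Ercc6. It had 13.0, 8.48 and 15.0 normalized reads in homozygous replicates 1 to 3 and 158, 113 and 158 in homozygous replicates 4 to 6. The heterozygous libraries had 89.2 and 85.5, and the wild type had 21.9, 79.8 and 22.4. Homozygous libraries were thus the lowest of set 1 and the highest of set 2, with no overlap in either set. Scaled together, homozygous replicates 1 to 3 were at 1.28 to 2.30 CPM and replicates 4 to 6 at 17.5 to 24.8 CPM, so libraries of 1 genotype label lay on both sides of the wild type at 3.40 to 12.3 CPM. The heterozygous libraries, at 13.2 and 13.7 CPM, lay just above that range. The log2 difference was 2.02 ± 0.45 (SE) against wild type (limma, adjusted p = 0.324) and -2.78 ± 0.50 against heterozygous (limma, adjusted p = 0.164). Without wild-type replicate 2, which was at 79.8, both passed, at 2.62 (adjusted p = 0.0228) and -2.78 (adjusted p = 0.0435). DESeq2 called it against heterozygous (-2.85, adjusted p = 0.000569). The wild type and the heterozygous libraries were normalized apart, so their fitted difference of 4.80 is the first difference minus the second and carries both errors (limma, adjusted p = 0.0796, and 0.0030 without wild-type replicate 2). DESeq2, fitted with the same set term, called it at 4.64 (adjusted p = 4.47e-06), while limma on the 5 libraries of these groups alone gave 1.33 (adjusted p = 0.613). The set term treats the gap between the homozygous libraries of the 2 sets as a set effect. That gap, 1.28 to 2.30 against 17.5 to 24.8 CPM, therefore enters the 4.80 and the 4.64. Neither is a difference seen directly between heterozygous and wild-type libraries. The sources used here do not give the annotation or assembly behind this feature.

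**Figure D2:**
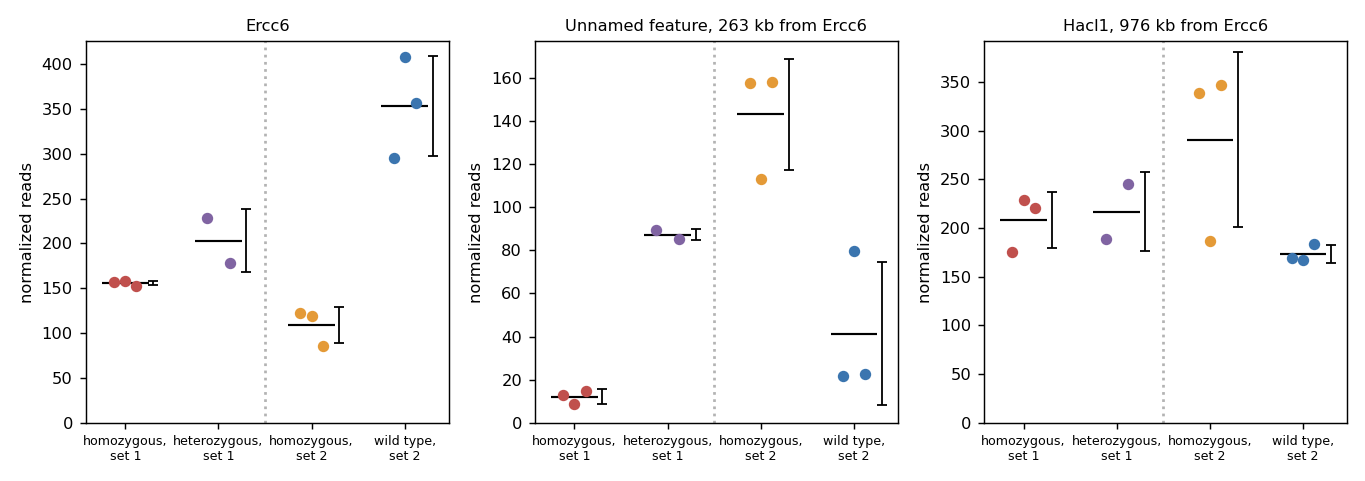
Normalized reads of Ercc6, the unnamed feature 263 kb away and Hacl1 in each library (points), with the group mean (line) and SD (bar, n = 2 or 3); the dotted line divides the 2 separately normalized sets. Ercc6 is lower in homozygous libraries of both sets, while the unnamed feature is lowest in homozygous replicates 1 to 3 (8.48 to 15.0) and highest in replicates 4 to 6 (113 to 158).

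Chat lay at chr16:8577840-8686131 and Slc18a3 at chr16:8682669-8685529, both on the minus strand and 48 kb from Ercc6. Chat was at 40.9, 3.40 and 70.8 normalized reads in homozygous replicates 4 to 6 and at 0, 17.8 and 3.32 in the wild type. A count of 0 in that wild-type library allows up to 3.28 normalized reads (3 reads, counting error only). Only homozygous replicates 4 and 6 were high, while replicate 5 lay inside the wild type's range. In set 1 Chat was at 4.33, 12.7 and 5.81 in homozygous replicates 1 to 3 and at 2.48 and 7.33 in the heterozygous libraries, and the groups overlapped.

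Slc18a3 was at 77.2, 20.4 and 130 normalized reads in homozygous replicates 4 to 6 and at 27.4, 25.3 and 17.4 in the wild type. The same 2 libraries, replicates 4 and 6, stood above all others. In set 1 it was at 24.5, 27.6 and 11.6 in the homozygous and at 23.5 and 29.3 in the heterozygous libraries, which overlapped. The log2 difference from wild type was 2.45 ± 1.10 for Chat and 1.33 ± 0.57 for Slc18a3, and neither passed (limma, adjusted p = 0.765 and 0.757). With 1 library left out, the Chat difference ran from 1.39 (without wild-type replicate 1) to 3.66. That of Slc18a3 was 2.08 without homozygous replicate 5 and 0.77 without replicate 6.

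With both sets scaled together, log2 CPM of Chat over the 6 homozygous and 3 wild-type libraries was 1.36 higher (exact permutation test, two-sided, p = 0.25, 0.5 after adjustment over both genes) and that of Slc18a3 0.55 higher (exact permutation p = 0.512, adjusted 0.512). The smallest p that the 84 arrangements allow is 0.0119. With homozygous replicates 4 and 6 left out, a choice made after seeing the values, the differences were 0.41 for Chat and -0.19 for Slc18a3. Per kb of gene, Slc18a3 was above Chat in each of the 11 libraries, at 0.626 to 7.12 against 0 to 4.24 CPM per kb. Because one gene lies inside the other on the same strand, reads of the shared part could be assigned to either.

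Genes listed as markers of other brain regions were also high in these 2 libraries. In homozygous replicate 4, Lhx8 and Isl1, transcription factors of forebrain cholinergic neurons, were at 8.30 and 9.74 CPM, against 0 to 0.579 and 0 to 0.256 in the other libraries, and the striatal genes Drd2 and Rgs9 were at 158 and 256 CPM, against 3.57 to 42.7 and 7.89 to 46.7. Homozygous replicate 6 had 0 reads of Lhx8 and Isl1. It had the highest level of Hoxb3, a hindbrain gene (8.23 CPM against 0 to 0.752). Slc6a2, the noradrenaline transporter, was also highest there (12.02 against 0 to 1.23). So was Slc6a5, a glycine transporter on the brainstem list (56.6 against 0.940 to 29.3). Slc6a5 was also at 29.3, 14.2 and 20.3 CPM in homozygous replicates 1 to 3, against 2.66 and 0.940 in the heterozygous libraries. The 7 cholinergic markers, which include Chat and Slc18a3 themselves, summed to 71.4 CPM in replicate 4 and 96.4 in replicate 6. The sum was 8.55 in replicate 5 and 10.7 to 20.2 in the wild type. Within it, Chat was at 6.31 CPM in replicate 4 and 11.1 in replicate 6, and Slc18a3 at 11.9 and 20.4. The 6 analysed of 8 striatal markers summed to 5658, 1212 and 838 CPM in replicates 4 to 6, against 1190 to 1444 in the wild type. The 3 analysed of 7 brainstem markers summed to 5.95, 16.4 and 76.8, against 4.52 to 12.1. Most of these sums was Slc6a5, at 5.59, 16.4 and 56.6 CPM in replicates 4 to 6. Whether Slc6a5 is particular to brainstem was not tested, so these sums do not tell brainstem from the labelled tissue. In bulk tissue, fewer cells of a type and less RNA per cell cannot be told apart, and the part of these markers in the Chat and Slc18a3 values was not tested.

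**Figure D3:**
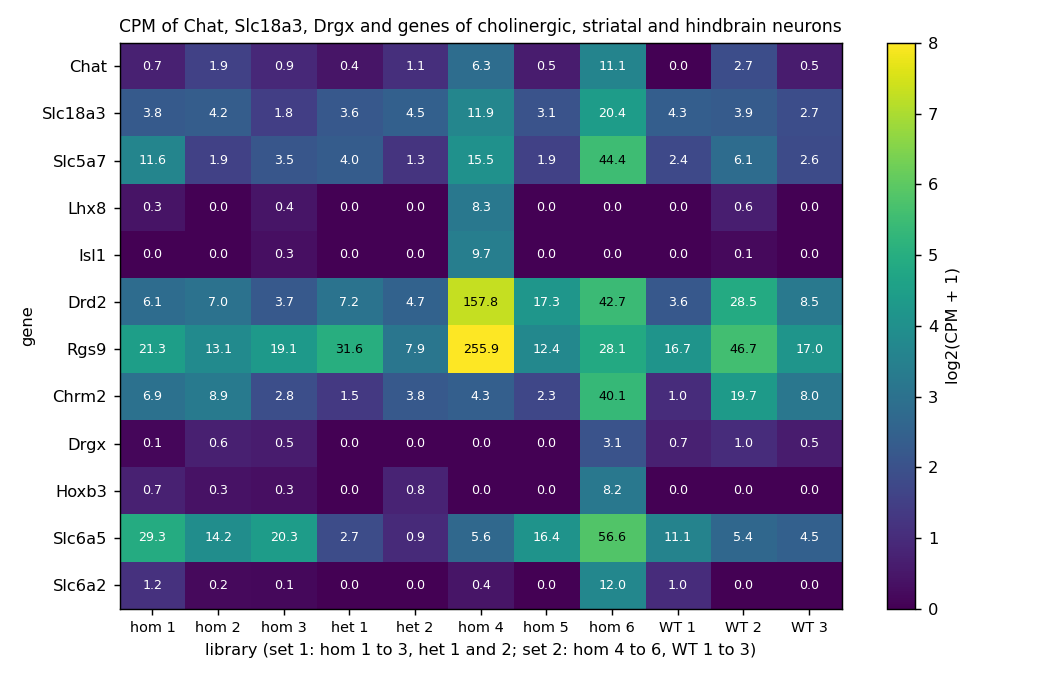
CPM (number and colour, the colour on a log2 scale) of Chat, Slc18a3, Drgx and genes of cholinergic, striatal and hindbrain neurons in each library, all scaled together. Chat and Slc18a3 are highest in homozygous replicates 4 and 6; replicate 4 also has the highest Lhx8, Isl1, Drd2 and Rgs9, and replicate 6 the highest Chrm2, Drgx, Hoxb3, Slc6a5 and Slc6a2.

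Of 30 other genes of acetylcholine use, 18 were tested and 0 passed in any comparison (limma). Between homozygous and wild-type libraries 17 of the 18 had a positive log2 difference, 0 had an unadjusted p under 0.05, and their median was 0.60, against -0.00 over all features. Chdh, the choline dehydrogenase, is both on this list and in the region. It overlapped between the groups of set 2, as did Colq, the collagen tail that anchors acetylcholinesterase, 1.05 Mb from Ercc6. In set 1 Chdh was at 88.7, 84.8 and 110 normalized reads in homozygous replicates 1 to 3. The heterozygous libraries were higher without overlap, at 136 and 123 (log2 difference -0.46, limma, adjusted p = 0.595). Slc5a7, the choline transporter that feeds Chat, was at 101, 12.5 and 283 normalized reads in homozygous replicates 4 to 6 and at 15.3, 39.4 and 16.6 in the wild type. Within set 2 it was high in the same 2 libraries as Chat. In set 1 Slc5a7 was at 11.59 CPM in homozygous replicate 1, not far below its 15.51 CPM in replicate 4. Chat was at only 0.669 CPM in replicate 1. Ache, which breaks acetylcholine down, was at 7.01, 5.67 and 5.00 normalized reads in homozygous replicates 4 to 6. In the wild type Ache was at 2.19, 0.939 and 4.15 (log2 difference 1.11, adjusted p = 0.850, limma). Against heterozygous libraries 12 of 18 were positive, with a median of 0.48, and 3 had an unadjusted p under 0.05, namely Chrnb4, Chrm4 and, in the negative direction, Chrnb1. The 3 named genes whose log2 CPM followed Chat's best over the 11 libraries were Slitrk6 (Pearson's r = 0.91), Wdr55 (0.90) and Agmo (0.88), and r between Chat and Slc18a3 was 0.77. The libraries farthest from Chat's median were homozygous replicates 4 and 6, and over the other 9 libraries these r were 0.85, 0.65, 0.75 and 0.04.

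Hacl1, a peroxisomal enzyme of fatty acid breakdown 976 kb away, was at 339, 187 and 346 normalized reads in homozygous replicates 4 to 6 and at 170, 167 and 184 in the wild type. The groups did not overlap, replicate 5 lay just above the wild type, and the log2 difference was 0.69 ± 0.26 (limma, adjusted p = 0.716). In set 1 it was at 175, 229 and 221 against 188 and 245, which overlapped. Ncoa4, the receptor that sends ferritin to lysosomes, was at 1105 to 1877 in homozygous replicates 4 to 6 and at 1369 to 1446 in the wild type. Dph3, which serves the making of diphthamide on an elongation factor, was at 257 to 331 against 213 to 279.

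Drgx, the nearest gene to Ercc6 at 19 kb, was at 0, 0 and 19.99 normalized reads in homozygous replicates 4 to 6 and at 4.38, 6.57 and 3.32 in the wild type. Replicate 6 alone was high, the library with the highest hindbrain markers. In set 1 it was at 0.721, 4.24 and 3.32 in the homozygous libraries and at 0 in both heterozygous ones. RGD1561145, which the RefSeq gene table lists as a synonym of Tmem273, was at 15.9, 29.7 and 26.6 in homozygous replicates 1 to 3 and at 66.9 and 67.2 in the heterozygous libraries. These did not overlap, but the log2 difference of -1.49 ± 0.48 did not pass (limma, adjusted p = 0.296), and in set 2 its 49.1, 44.2 and 24.2 overlapped the wild type's 47.1, 17.8 and 20.8.

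Galnt15, an enzyme that starts mucin-type sugar chains, was at 39.7, 80.5 and 93.0 in homozygous replicates 1 to 3 and at 107 and 326 in the heterozygous libraries. The heterozygous libraries were higher without overlap and far apart from each other (log2 difference -1.47 ± 0.52, limma, adjusted p = 0.325). Wdfy4, needed in mouse for antigen cross-presentation by dendritic cells, was at 65.0 to 141 in homozygous replicates 4 to 6 and at 41.5 to 120 in the wild type, and Vstm4 was at 97.0 to 170 against 77.0 to 129. Arhgap22, a GTPase activator, was at 0, 0 and 0.833 against 4.38, 4.69 and 1.66 (log2 difference -1.82 ± 0.66, limma, adjusted p = 0.710). A longer unnamed feature covers it on the same strand and held 11.7, 18.1 and 20.8 against 7.66, 14.1 and 11.6, so the feature's values lay the other way on average. Lrrc18, LOC680885, AABR07024637.1, Oxnad1 and RGD1564899 stayed at or under 17.4 normalized reads in all libraries, and the last 2 had a mean under 1 and were not tested. LOC100362432 was at 1487, 1534 and 2010 against 1103, 1391 and 1624.

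**Figure D4:**
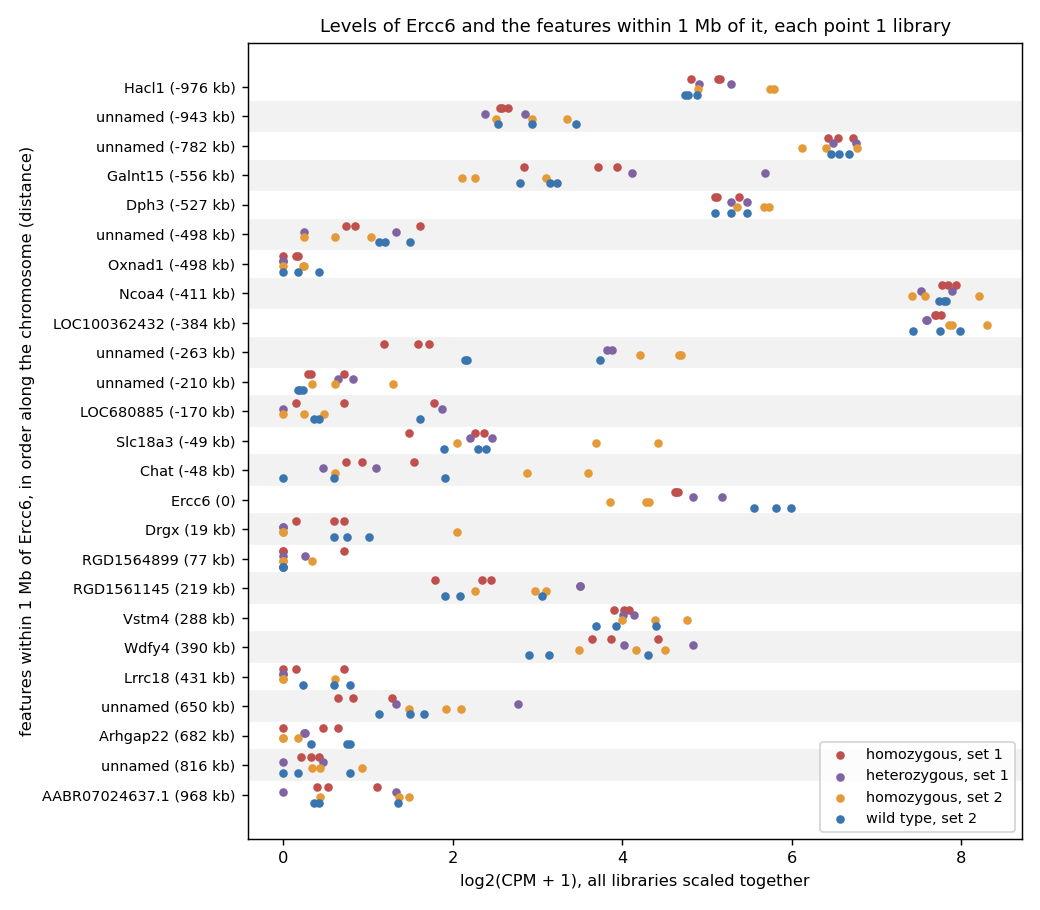
Log2(CPM + 1) of Ercc6 and the 24 features within 1 Mb of it in each library (1 point each, coloured by group and set), in order along the chromosome with the distance from Ercc6 in kb. Ercc6 separates the wild type from the homozygous libraries of both sets; most neighbours, such as Ncoa4 and Dph3, overlap, and the unnamed feature at 263 kb separates the 2 sets of homozygous libraries.

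Counts of members whose libraries did not overlap were near those of all features in set 2. There, homozygous libraries were all higher for 17 members (6.07%, against 6.14% of all features) and all lower for 19 (6.79%, against 5.27%). In set 1, with only 2 heterozygous libraries, 28 members were all higher (10.0%, against 15.2%) and 56 all lower (20%, against 15.1%). Of those 56, 40 lay over 5 Mb from Ercc6, as did 186 of the 280 tested members. With both sets scaled together, 6 of the members compared over 6 homozygous and 3 wild-type libraries were all higher (2.14%, against 1.05%) and 6 all lower (2.14%, against 0.888%). The higher ones were Gdf15 and 5 unnamed features, and the lower ones Tmem254, Unc13a, Pde4c, Slc18a1 and 2 unnamed features. No member was ordered from homozygous over heterozygous to wild type without overlap in either direction, against 0.0143% of all features in each. No member was at 5 or fewer normalized reads in each library of 1 group and at 20 or more in each of the other, against 0.00954% of all features in set 2 and 0.0239% in set 1.

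Of 4 growth factor genes 3 were tested and 0 passed. Gdf15, a stress-induced cytokine 11.8 Mb from Ercc6, was at 17.5, 14.7 and 15.0 normalized reads in homozygous replicates 4 to 6 and at 8.75, 5.63 and 3.32 in the wild type. The groups did not overlap, the log2 difference was 1.35 ± 0.46 and it did not pass (limma, adjusted p = 0.675). In set 1 the homozygous libraries were at 15.9, 20.1 and 9.97 and overlapped the heterozygous 11.2 and 7.33. Gdf10, a bone morphogenetic protein relative, was at 136, 75.2 and 213 in homozygous replicates 1 to 3 and at 63.2 and 12.2 in the heterozygous libraries (log2 difference 2.17, limma, adjusted p = 0.278). The difference was 3.31 without heterozygous replicate 1 and 1.03 without replicate 2, and its set 2 groups overlapped. Wnt5a, a Wnt ligand, was at 29.7 to 138 in set 1 homozygous and at 35.4 and 53.3 in heterozygous libraries.

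Of 11 synaptic genes in the region 0 passed, with a median log2 difference of -0.35 against wild type and 0.15 against heterozygous. Rab3a, the GTPase of synaptic vesicles, was at 2704, 2146 and 2022 normalized reads in homozygous replicates 1 to 3 and at 982 and 779 in the heterozygous libraries. The groups did not overlap, with a log2 difference of 1.38 ± 0.34 (limma, adjusted p = 0.240; DESeq2, 1.37, adjusted p = 0.0301). In set 2 it was at 2040, 1839 and 3308 in homozygous and at 1061, 2538 and 2135 in wild-type libraries, which overlapped, and wild-type replicate 1 was near the heterozygous level. Unc13a, which primes vesicles, was at 2.34, 1.13 and 0.833 against 4.38, 3.75 and 7.47 (log2 difference -1.35 ± 0.52, limma, adjusted p = 0.742), while a covering unnamed feature on its strand had a mean of 16.6 over all libraries against 3.51 for Unc13a. Slc18a1, a vesicular monoamine transporter, was at 16.4, 10.2 and 6.66 against 19.7, 21.6 and 33.2 (log2 difference -1.14, limma, adjusted p = 0.790).

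Sncg, the gamma member of the synuclein family, lies 1.92 Mb from Ercc6. It was at 81.8, 114 and 840 normalized reads in homozygous replicates 4 to 6 and at 1710, 318 and 761 in the wild type. Replicate 6 lay inside the wild type's range, and the log2 difference of -1.90 ± 0.88 did not pass (limma, adjusted p = 0.786). In set 1 the homozygous 133, 31.8 and 146 overlapped the heterozygous 146 and 40.3. Homozygous replicate 6 was also the library with the highest hindbrain markers, and their part in this value was not tested.

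Abhd8, a hydrolase-fold protein and one of the region's most abundant members, was at 6531, 9374 and 9488 normalized reads in homozygous replicates 1 to 3 and at 13513 and 16851 in the heterozygous libraries. They did not overlap, at a log2 difference of -0.85 ± 0.22 (limma, adjusted p = 0.240; DESeq2, adjusted p = 0.0359). Zcchc24, a zinc finger protein, was at 2416 to 3947 against 5658 and 7355 (-1.05, limma, adjusted p = 0.271), and Tpm4, a tropomyosin, at 653 to 762 against 1056 and 1607 (-0.91, limma, adjusted p = 0.277). The 3 analysed of 5 endothelial markers, Tek, Slc2a1 and Emcn, summed to 584 to 967 CPM in homozygous replicates 1 to 3 and to 1630 and 3215 in the heterozygous libraries, and their part in these differences was not tested. In set 2 all 3 genes overlapped between groups.

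Of 10 genes of transcription, 0 passed, with a median of -0.09 in both comparisons with homozygous libraries. Ell and Eaf1, an elongation factor of RNA polymerase II and its partner, were at 405 to 436 and at 355 to 365 normalized reads in homozygous replicates 4 to 6, against 464 to 508 and 374 to 450 in the wild type, both without overlap but with log2 differences of -0.19 each (limma, adjusted p = 0.903 and 0.920). Med26, a Mediator subunit, and Jund, an AP-1 subunit, overlapped. Polr3a, the largest subunit of RNA polymerase III, was at 3.40 to 8.33 against 4.98 to 5.63, while an unnamed feature over it on the same strand was at 51.4, 47.6 and 41.6 against 38.3, 27.2 and 30.7. Of 8 immune genes 7 were tested and 0 passed, with a median of 0.45 against wild type and -0.25 against heterozygous. The 3 analysed of 5 microglia markers, Aif1, Csf1r and Tmem119, summed to 44.98 to 131 CPM in the wild type and 86.2 to 171 in the homozygous libraries of set 2, and to 134 and 173 in the heterozygous and 71.1 to 143 in the homozygous libraries of set 1; their part in these medians was not tested. Of 7 genes of metabolism 6 were tested and 0 passed, with medians of -0.19 and -0.20. Glud1, glutamate dehydrogenase and the most abundant named member, was at 9515 to 12372 against 9565 to 17606, and Slc27a1, a fatty acid transporter, at 484 to 899 against 727 to 1489. Both overlapped. Of 4 genes known from the retina 0 passed, and Opn4, the light receptor melanopsin 2.14 Mb from Ercc6, was at 16.4, 10.2 and 21.7 against 0, 7.51 and 8.30 (log2 difference 1.93 ± 0.75, limma, adjusted p = 0.742). Its groups did not overlap in set 2, and in set 1 its 9.38, 6.36 and 4.98 overlapped the heterozygous 6.20 and 10.99.

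The other members with the smallest p in each comparison also missed the threshold. Against wild type, unnamed features starting at positions 1979191, 19560711 and 7206626 were higher in homozygous replicates 4 to 6, at 18.3 to 22.2 against 6.64 to 11.3, 131 to 194 against 65.7 to 122, and 271 to 341 against 154 to 239 normalized reads. Unnamed features at 3110447 and 686013 and the snoRNA SNORA32 were lower, at 0 to 1.17 against 4.69 to 9.13, 0 to 1.13 against 0.830 to 8.75, and 0 against 1.88 to 2.49. The groups of the feature at 686013 overlapped, and those of the other 5 did not; the last 3 rest on a few reads.

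Against heterozygous libraries, an unnamed feature at 3974848 was at 509, 141 and 197 against 75.6 and 69.6, and one at 20578131 at 86.5, 129 and 143 against 290 and 261 normalized reads. Neither overlapped, and these were the other 2 unnamed members that DESeq2 called (adjusted p = 0.0471 and 0.0359). Ptpn20, a protein tyrosine phosphatase, was at 3.18 to 6.49 against 0 in both heterozygous libraries, and Asb14, an ankyrin repeat protein, at 10.8 to 18.0 against 0 and 6.10, with a log2 difference of 2.50 that was 1.08 without heterozygous replicate 1 and 3.91 without replicate 2. Between heterozygous and wild-type libraries, RNaseP_nuc, annotated as a ribozyme, was at 3.72 and 7.33 against 0 to 0.939, and an unnamed feature at 22537056 at 0 and 1.22 against 2.82 to 9.13, values of separately normalized sets. Among the most abundant members, Atp6v1b2, a subunit of the vesicle proton pump, and Lzts1, a leucine zipper protein, overlapped between homozygous and wild-type libraries.

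Many named members were counted next to an assembled feature of the same strand. Of the 135 protein-coding members, 34 lay under one, and their median of mean normalized reads was 8.59, against 66.1 for the other 101. In 20 of the 34 the assembled feature held more reads than the gene. For Sin3b, a corepressor, the means were 24.1 for the gene and 836 for the feature, for Upf1, a helicase of nonsense-mediated decay, 4.10 and 339, and for Cacna1d, a calcium channel subunit, 8.81 and 159. Values of these named genes therefore cover only part of the reads at the place. A further 37 features of the region were listed in only 1 set, 19 in set 1 and 18 in set 2. They held at most 8 reads in total over a set and entered no test.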

How the data were processed

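RNA was sequenced in 11 libraries with 1 file each. The submitters' processing notes name HISAT2 2.0.4, FastQC and the build rn6; the sources used here give no counter, annotation or strand setting. The deposited values hold a normalized signal per feature, its reads divided by a library-wide size factor by the authors. Within 0.001 of a read, 100% of the values were whole multiples of 1 read, so the reads were recovered; library totals were 5406669 to 8723823 reads. On them edgeR called 5 features between homozygous and wild-type libraries, 0 of them members.

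The 2 separately normalized sets were read from the features each file lists, 24436 in set 1 and 24792 in set 2. Limma 3.58.1 in R 4.3.3, with the trend option of its empirical Bayes step, was run on log2(value + 1) over 20956 features with a mean of at least 1, with group and set in 1 fit of 11 libraries, and with Benjamini-Hochberg adjustment over all of them at a threshold of 0.05. Fold changes on this scale understate those of low features. CPM across sets used TMM scaling (edgeR 4.0.16). DESeq2 1.42.0 was an alternative. The scripts were tested on simulated data. Distance is the gap between a feature and Ercc6. Intervals and limits from counts cover counting error only.

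The members, lists and role groups were chosen with earlier results of these data known. Named were Chat, Slc18a3, all named features within 1 Mb, in each comparison the 5 members per direction with the smallest p, the 5 most abundant named members, and the 3 genes most like Chat; 1 item that this rule names is not reported here, and genes named for their role were chosen after their values were seen. Replicate numbers did not pair the libraries: correlations of deviations of same-numbered libraries ran from -0.104 to 0.163.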

Additional observations from a re-analysis of the deposited data

Results flagged for a closer look

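Of 40 features checked among the 6 homozygous libraries, 7 had 1 library far from the other 5 by Dixon's criterion, which chance meets in about 1 of 20 groups. Homozygous replicate 6 was the far library for 3 of them: LOC100362432 was highest there at 315 CPM (next 236), Drgx highest at 3.14 CPM (next 0.639), and Lzts1 lowest at 286 CPM (next 583). LOC680885 was highest in replicate 3 at 2.43 CPM. The unnamed feature at 3974848 was highest in replicate 1 at 78.7 CPM, and that at 686013 in replicate 2 at 0.479 CPM. RNaseP_nuc was highest in replicate 5 at 0.524 CPM.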

How the results depend on the processing

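The alternatives left the 723 recomputed values of 36 named results with the same direction and side of the threshold in 697 cases. No member was called under most settings. The replicate block called 1 member between homozygous and wild-type libraries, Sncg (-3.11, adjusted p = 0.00769, limma), and DESeq2 called 5 against heterozygous and 1 between heterozygous and wild-type libraries. Leaving out single replicates gave 0 to 1 called members in each comparison, in each case the unnamed feature at 8466951 without wild-type replicate 2. The median difference of the members moved by less than the spread between replicates in each alternative run. Counts without overlap in set 2 were 7 higher and 11 lower over members with a gene name, and 11 lower at a mean of at least 10; in set 1 they were 12 and 27 over members with a gene name. Leaving out 1 replicate, which makes groups overlap less, gave 25 to 43 higher and 29 to 43 lower in set 2, and 36 to 70 and 63 to 97 in set 1. The Chat level differed by 0.56 (without wild-type replicate 1) to 2.23 (without wild-type replicate 2) and that of Slc18a3 by 0.18 to 0.84 when 1 replicate was left out, with the lowest without homozygous replicate 6, and Slc18a3 by -0.19 without homozygous replicates 4 and 6, chosen after seeing the data.

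Directions turned for Chat against heterozygous without heterozygous replicate 1 (the left-out range was -0.071 to 1.19), and for Slc18a3 against heterozygous with no set term (0.38). Against wild type, the replicate block and homozygous replicates 1 to 3 taken in place of 4 to 6 (the latter chosen after seeing the data) turned Slc18a3 to -0.19 and -0.20, the unnamed feature at 8466951 to -1.45 and -1.41, that at 7206626 to -0.24 and -0.25, and SNORA32 to 0.12 and 0.10. The cause was not tested. The Ercc6 difference from wild type kept its direction and missed the threshold when the 6 libraries were fitted alone (-1.69, adjusted p = 0.135, limma), under the replicate block (-1.16, adjusted p = 0.668) and for homozygous replicates 1 to 3 (-1.18, adjusted p = 0.293). With 2 or 3 libraries a group, members of a few reads could not show small differences.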
